A study of Mus musculus with 2 samples.

Results

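Dbp, Tef, Hlf, Nfil3, Nr1d1, Nr1d2 and Rora carry the output of the circadian clock and feed it back to the clock itself. These 7 genes were taken by symbol from the gene names of the authors' table, out of 22270 named genes on the array, and each had 1 probe set. They are pathway genes chosen by their differences between the 2 arrays, with the RMA and dChip values of this comparison in view, so those values are a description and none of them was tested. All 7 lay above the floor of detection used here, a log2 value of 7.56 (the median over the named probe sets) reached on the brighter array, as did 11570 of the named genes.

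RNA came from preglomerular arterioles of mouse kidney cortex, the small arteries that lead to the glomeruli and bear the renin cells. The mice were perfused with iron oxide, and the iron-filled vessels were freed with collagenase and drawn out with a magnet. The wild type pool held RNA of 3 animals, 2 males and 1 female, with both Ren1d alleles intact (Ren1d+/+). The RBP-J cKO pool held RNA of 4 males with cre at 1 Ren1d allele (Ren1d+/cre), which deletes RBP-J in cells that express or have expressed renin. Animals of both pools carried floxed RBP-J alleles (RBP-J flox/flox) and the R26R ECFP reporter. All animals were 3 months old and of mixed 129Sv and C57Bl6 strain. The sources used here do not give the hour of the day at which tissue was taken. Each pool was hybridised to 1 array, so there is no replicate, no spread between samples and no test of genotype, and precision is limited by the number of arrays. Pooling also leaves differences between animals unmeasured. Rbpj itself read 9.0 and 9.02, a difference of 0.019 in RMA values and -0.017 in dChip values, and since other cells of the preparation keep the gene and the probes' place relative to the deleted part is not known here, it does not check the labels.

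In mammals the clock is a loop in which the activators BMAL1 (encoded by Arntl) and CLOCK, or its relative NPAS2, bind E-box sequences and switch on the Per and Cry repressors together with Dbp, Tef, Hlf, Nr1d1 and Nr1d2. DBP, TEF and HLF are the PAR-bZip activators, which bind D-box sequences, and NFIL3 (E4BP4) represses through the same D-boxes. REV-ERB alpha and REV-ERB beta, the products of Nr1d1 and Nr1d2, repress genes with ROR response elements, among them Arntl, Npas2 and Nfil3, while ROR alpha, the product of Rora, activates them. As a result the E-box genes and the genes repressed by REV-ERB peak at opposite times of day in mouse tissues. In the kidney the PAR-bZip factors are known for driving daily rhythms of transport and drug metabolism genes.

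The promoters of the genes the results turn on are shown first, and were searched for letters that these factors are known to bind. Windows of 300 bases, from 250 before the annotated start to 50 past it, were taken from RefSeq on build GRCm38.p6, which held 8 windows for the 7 genes. Capitals mark the D-box letters TTANNTAA, the E-box letters CACGTG, and the ROR element letters TAGGTCA or TGGGTCA, each searched on both strands. The members shown are Dbp at chr7:45704997-45705296 on the + strand, which had the largest negative difference, both windows of Tef at chr15:81802423-81802722 and chr15:81811164-81811463 on the + strand, and Nfil3 at chr13:52980990-52981289 on the - strand, which had the largest positive one. The second window of Arntl at chr7:113207261-113207560 on the + strand and Per3 at chr4:151044616-151044915 on the - strand were picked by their letters. Of the windows of the core clock genes compared below, they alone held ROR element or D-box letters.
Dbp: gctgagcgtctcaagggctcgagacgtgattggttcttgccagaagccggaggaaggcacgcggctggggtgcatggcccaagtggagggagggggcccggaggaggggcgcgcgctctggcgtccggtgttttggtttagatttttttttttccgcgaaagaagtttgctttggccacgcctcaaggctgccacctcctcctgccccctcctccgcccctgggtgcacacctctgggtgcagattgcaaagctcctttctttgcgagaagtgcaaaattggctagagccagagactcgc
Tef, first window: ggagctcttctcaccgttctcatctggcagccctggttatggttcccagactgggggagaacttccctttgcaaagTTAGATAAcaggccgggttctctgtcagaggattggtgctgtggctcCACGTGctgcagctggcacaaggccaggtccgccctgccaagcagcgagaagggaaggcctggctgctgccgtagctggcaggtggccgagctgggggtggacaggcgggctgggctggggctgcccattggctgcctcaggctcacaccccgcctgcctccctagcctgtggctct
Tef, second window: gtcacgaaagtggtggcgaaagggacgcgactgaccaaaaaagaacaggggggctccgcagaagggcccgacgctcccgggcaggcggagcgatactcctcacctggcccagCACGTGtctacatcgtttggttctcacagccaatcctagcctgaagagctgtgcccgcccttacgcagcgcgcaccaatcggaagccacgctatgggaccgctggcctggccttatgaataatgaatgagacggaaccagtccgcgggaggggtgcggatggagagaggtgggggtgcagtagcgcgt
Nfil3: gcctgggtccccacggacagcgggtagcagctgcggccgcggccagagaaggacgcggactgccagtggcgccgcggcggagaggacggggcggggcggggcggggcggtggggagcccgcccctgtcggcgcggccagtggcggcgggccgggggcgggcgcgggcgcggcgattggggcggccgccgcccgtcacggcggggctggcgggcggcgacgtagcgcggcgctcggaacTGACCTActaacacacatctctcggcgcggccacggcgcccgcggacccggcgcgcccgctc
Arntl, second window: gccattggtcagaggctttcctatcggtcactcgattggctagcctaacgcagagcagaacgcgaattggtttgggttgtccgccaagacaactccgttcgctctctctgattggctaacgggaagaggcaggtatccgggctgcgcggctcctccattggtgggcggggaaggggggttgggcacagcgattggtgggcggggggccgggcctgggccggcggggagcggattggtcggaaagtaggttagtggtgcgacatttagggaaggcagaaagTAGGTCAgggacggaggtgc
Per3: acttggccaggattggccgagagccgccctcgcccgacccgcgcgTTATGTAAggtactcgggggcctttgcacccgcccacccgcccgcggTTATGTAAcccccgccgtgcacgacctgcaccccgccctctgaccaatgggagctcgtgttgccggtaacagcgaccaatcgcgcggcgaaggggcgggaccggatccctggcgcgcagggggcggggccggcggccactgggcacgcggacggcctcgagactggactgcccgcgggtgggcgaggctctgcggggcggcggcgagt

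Among the members, E-box letters stood in both windows of Tef and in 0 of the other windows, against 7.15% of all 32851 windows in the RefSeq table. The first Tef window also held D-box letters (TTAGATAA, 174 bases before the start), which 6.0% of all windows hold. Nfil3 held the ROR element letters TAGGTCA on the opposite strand, read as TGACCTA in the window, 12 bases before its start. That element occurs in 2.61% of all windows, and its variant TGGGTCA, in 3.98% of all windows, was in 0 of the 8 member windows. The second Arntl window held the same TAGGTCA on the gene's strand, from base 281 to base 287 of the window and so past the annotated start, and Per3 held the D-box letters TTATGTAA at 2 places. The windows of Dbp, Hlf, Nr1d1, Nr1d2 and Rora held none of these letters. The search covers these windows alone, and E-boxes of Dbp known from mouse also lie within its introns. Of the other 11 core clock genes compared below 9 had windows, and E-box letters stood in those of Per1, Cry1, Bhlhe41 and Ciart, the last at 3 places. ROR element letters stood in Arntl alone and D-box letters in Per3 alone of those 9 genes. The windows of Npas2, Clock, Cry1 and Per1 thus held neither. A match describes the letters and was not tested as a binding site.

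The PAR-bZip activator genes were lower in the cKO pool, Nfil3 was higher, the Rev-erb genes were slightly lower and Rora was level. In RMA values, 5 of the 7 members were lower, against 46.0% of all genes above the floor, and 2 were higher, against 53.9%. At least 1.5-fold lower was Dbp, 1 of 7 members against 1.61% of all genes, and at least 1.5-fold higher was Nfil3, 1 of 7 against 4.11%. None of the 7 reached a 2-fold difference, which 0.856% of all genes did upwards and 0.199% downwards. In dChip values of the same arrays 5 members were again lower (45.6% of all genes) and 2 higher (54.4%), Dbp alone was at least 1.5-fold lower (1.46%) and 0 members were at least 1.5-fold higher (4.13%). None was 2-fold apart in dChip values either (0.916% of all genes upwards, 0.156% downwards). The members' median log2 difference in RMA values, cKO minus wild type, was -0.28, and that of all genes above the floor was 0.023, with a standard deviation across genes of 0.31. Nothing is read from these shares, since the members were chosen with the differences in view.

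**Figure D1:**
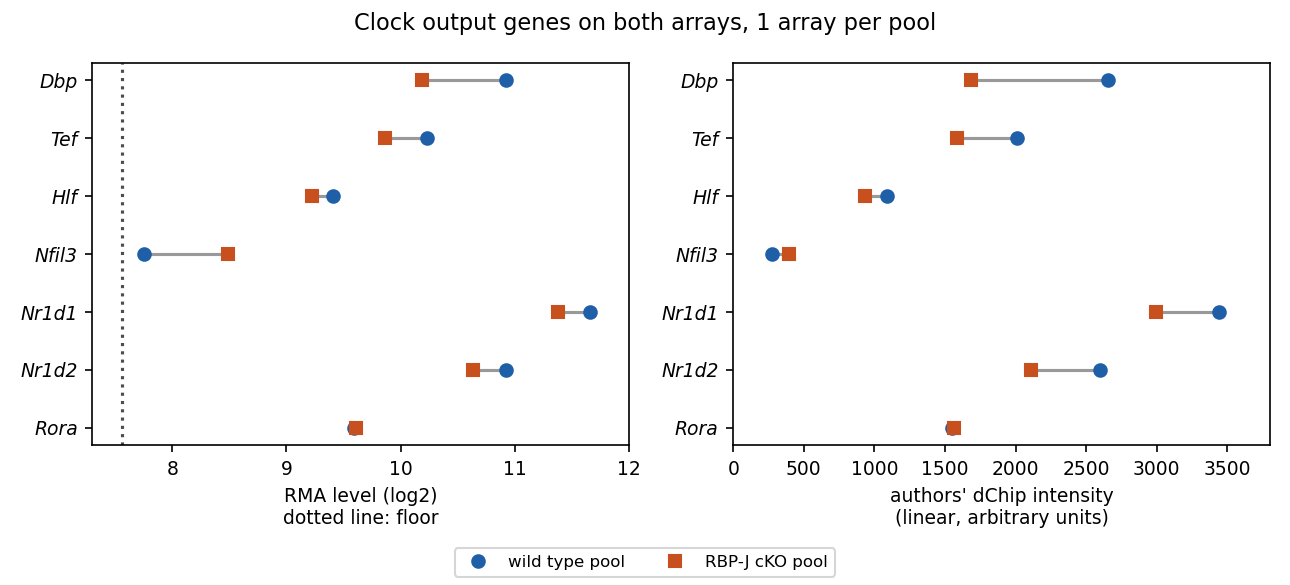
Levels of the 7 genes in the wild type pool (circles) and the RBP-J cKO pool (squares), as RMA log2 values on the left with the floor as a dotted line, and as the authors' linear dChip intensities on the right; each point is 1 array. Dbp has the widest gap towards lower cKO values, 10.93 against 10.19, Nfil3 runs the other way, and the Rora points coincide.

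Dbp, named for its binding to the albumin promoter and the member of the PAR-bZip family with the strongest daily rhythm in most mouse tissues, read 10.93 in the wild type pool and 10.19 in the cKO pool (log2 RMA, probe set 10553092). The cKO pool was the lower one, by 0.74 on the log2 scale or 1.67-fold, and 66 of the 11570 genes, Dbp included, differed by as much or more in that direction. The authors' deposited table held intensities of 2655 for wild type and 1680.4 for cKO, and a signed fold of -1.58 bounded by -1.53 and -1.63. Tef, thyrotroph embryonic factor, read 10.24 in wild type and 9.86 in cKO, lower by 0.37 on the log2 scale or 1.30-fold. Its signed fold in the authors' deposited table was -1.26, bounded by -1.23 and -1.30. Hlf, hepatic leukemia factor, read 9.41 in wild type and 9.22 in cKO, a difference of -0.19 and a 1.14-fold lower level. For Hlf the authors' deposited table gave -1.17, bounded by -1.14 and -1.20. The 3 PAR-bZip genes thus shared a sign and differed in size, and the bounds for Dbp did not overlap those for Tef or Hlf. The sources used here do not give the confidence level of these bounds, and with 1 array a pool they cannot hold the variation between pools.

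Nfil3, the repressor that competes with the PAR-bZip activators for D-boxes, read 7.75 in the wild type pool and 8.49 in the cKO pool (probe set 10409278). The cKO pool was the higher one, by 0.74 on the log2 scale or 1.67-fold, and 263 genes, Nfil3 included, differed by as much or more upwards. Its wild type level lay just above the floor of 7.56, where differences are least certain. In the authors' deposited table the intensities were 276 and 396 and the signed fold was 1.43, with bounds of 1.32 and 1.57, the widest bounds of the 7 members. With the dChip values Nfil3 was therefore under 1.5-fold. The gap between the differences of Nfil3 and Dbp was 1.48 on the log2 scale in RMA values and 1.18 in dChip values. That gap was 1.11 against Tef and 0.92 against Hlf in RMA values, and 0.86 and 0.75 in dChip values. In both processings Nfil3 was higher in the cKO pool and Dbp, Tef and Hlf were lower. These signs were in view when the members were chosen.

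Nr1d1, which encodes REV-ERB alpha, a heme-binding nuclear receptor that represses transcription, had levels of 11.66 for wild type and 11.38 for cKO (probe set 10390691). The difference was -0.28, or 1.21-fold lower, and 9.89% of all genes lay at or below it. Nr1d2, encoding its paralogue REV-ERB beta, read 10.92 and 10.63, a difference of -0.29 or 1.22-fold lower. Both genes of the pair were thus lower by nearly the same amount in RMA values. The authors' deposited table gave Nr1d1 -1.15, bounded by -1.12 and -1.18, and Nr1d2 -1.23, bounded by -1.20 and -1.27, so there the difference of Nr1d2 was the larger of the pair. Thra, the thyroid hormone receptor alpha gene, overlaps Nr1d1 in the RefSeq table and is transcribed from the opposite strand. Its levels were 9.94 for wild type and 9.91 for cKO. The sources used here do not say which strand the probes read.

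Rora, encoding the activator that shares response elements with the Rev-erb repressors, had levels of 9.59 for wild type and 9.61 for cKO (probe set 10586700). The difference of 0.017 turned to -0.0053 after centring on the median of all genes and to -0.016 after loess centring, so it has no settled sign. In the authors' deposited table its intensities were 1552 and 1565, and its signed fold of 1.01 had bounds of 0.99 and 1.03, on both sides of equality. The difference of Nr1d1 lay 0.29 below that of Rora and the difference of Nr1d2 lay 0.30 below it. Rorb, a paralogue of Rora, was below the floor at 5.52 and 5.40.

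**Figure D2:**
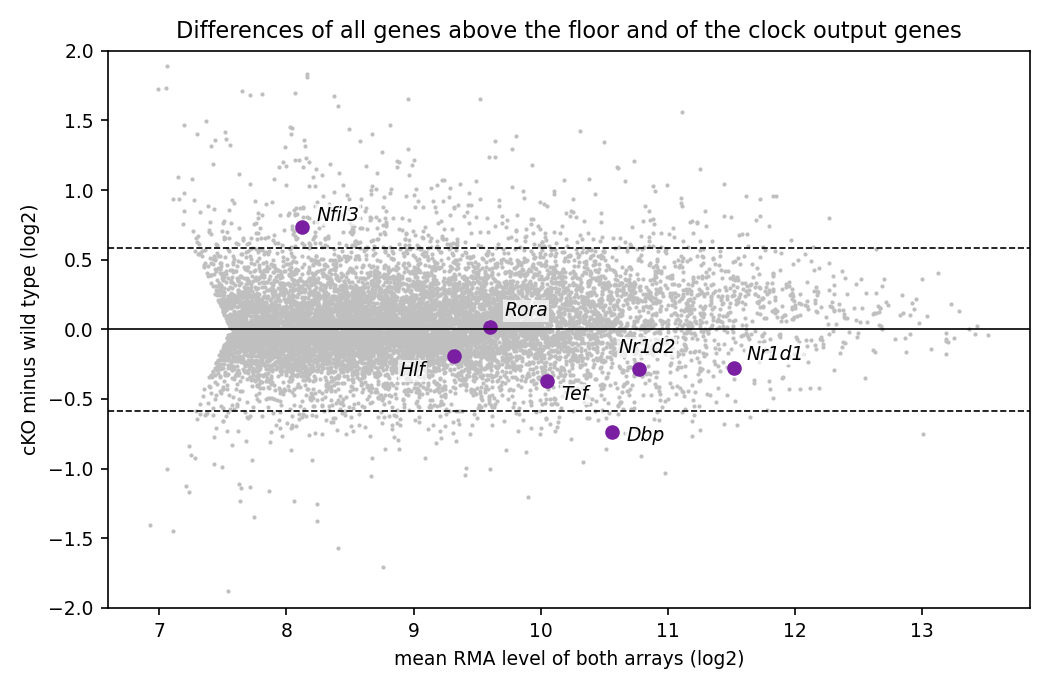
Difference between the arrays (cKO minus wild type, log2 RMA) against the mean level of both arrays for the 11570 genes above the floor (grey) and the 7 clock output genes (purple), with dashed lines at 1.5-fold; 6 genes lie outside the axis limits of 2. Dbp lies below the lower line and Nfil3 above the upper line, and the other 5 members lie between them.

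The core clock genes give the setting of these values. The activator genes differed from one another. Arntl read 6.19 in wild type and 7.92 in cKO, a difference of 1.73, and Npas2 read 6.13 and 7.85, again a difference of 1.73. The wild type levels of both lay below the floor, so the sizes are uncertain, and the dChip differences were 1.85 for Arntl and 1.33 for Npas2. Clock, the partner of BMAL1, read 9.82 and 9.84 and differed by 0.025, so the Arntl difference lay 1.70 above that of Clock.

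Period and cryptochrome genes, the repressors of the loop, were all 5 lower, against 46.0% of all genes above the floor, with a median of -0.44. At least 1.5-fold lower was 1 of them, against 1.61% of all genes. Per3 read 9.91 in wild type and 8.91 in cKO, a difference of -0.999, just short of 2-fold. Cry2 differed by -0.51, Per1 by -0.44 and Per2 by -0.41, while Cry1 differed by -0.095. Cry1 is also known to carry ROR elements, though its window searched here held none of their letters. Of 3 further E-box repressors, Bhlhe41 (DEC2) read 9.19 and 7.62, a difference of -1.57. Ciart (CHRONO) differed by -0.53, and Bhlhe40 (DEC1) by 0.15 in the other direction. Kinase and ubiquitin ligase genes that set the stability of PER and CRY proteins stayed within 1.5-fold in 5 of 5 cases. So did most of all genes above the floor, of which 4.11% were at least 1.5-fold higher and 1.61% lower. The 5 ran from -0.32 for Csnk1e to 0.22 for Fbxl21, with a median of -0.086. The wild type level of Fbxl21 lay just below the floor.

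**Figure D3:**
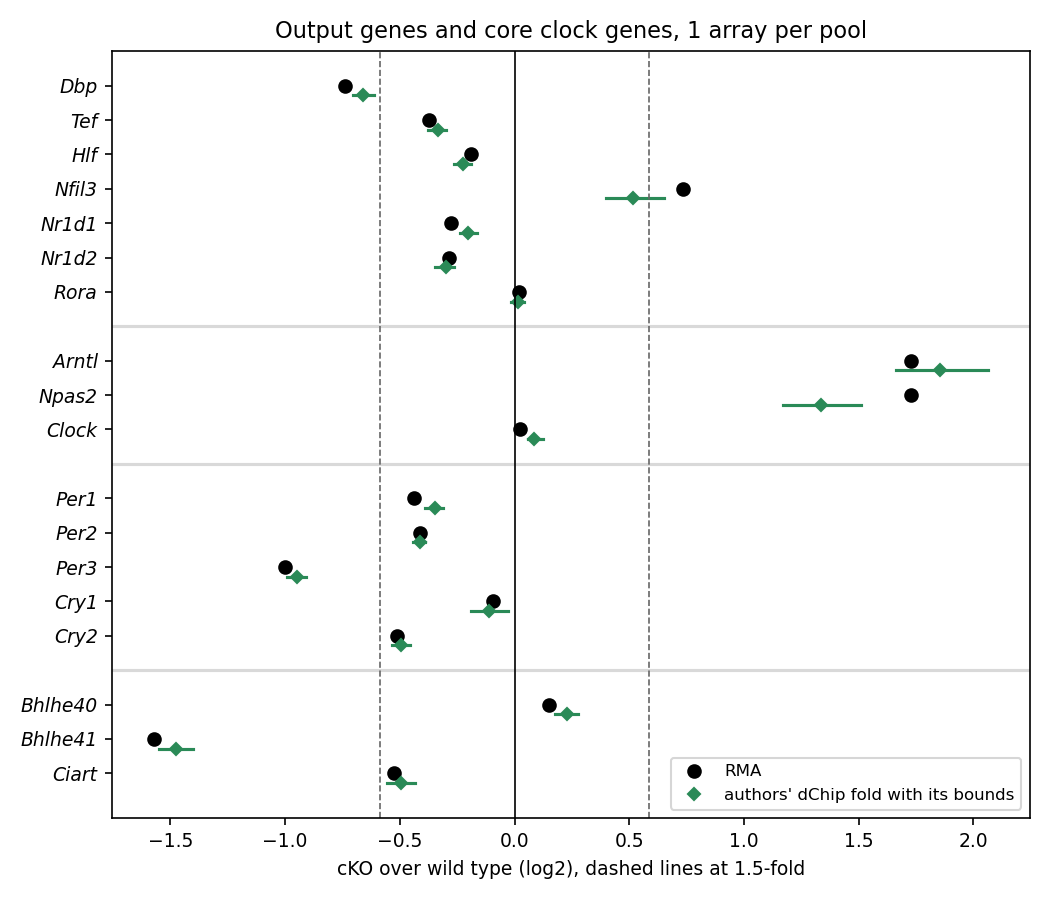
Differences of the 7 clock output genes and 11 core clock genes, cKO over wild type on the log2 scale, from RMA (circles) and from the authors' dChip fold with its bounds (diamonds and lines), with dashed lines at 1.5-fold. Dbp, Per3 and Bhlhe41 lie beyond the lower line in both processings, Arntl and Npas2 beyond the upper line in both, and Nfil3 beyond it in RMA alone.

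Genes known to be bound by the Rev-erb and ROR factors through ROR elements lay higher in 4 of 5 cases (median 0.74), against 53.9% of all genes above the floor. Arntl, Npas2 and Nfil3, 3 of the 5, were at least 1.5-fold higher, against 4.11% of all genes. Nfil3 is itself one of the 7 members chosen by their differences and sets this median. Without it 3 of 4 lay higher, 2 of them by at least 1.5-fold, with a median of 0.88. Those 2, Arntl and Npas2, passed the floor on the cKO array alone, where they are high, so nothing is read from this count or median. With the dChip values 2 of the 5, Arntl and Npas2, were at least 1.5-fold higher, against 4.13% of all genes. Clock and Cry1, also on this list, stayed near zero as given above. Genes of the Rev-erb corepressor complex were level, with Ncor1 at 0.053, Tbl1x at 0.031 and Hdac3 at -0.033. The sign of Hdac3 turned with the dChip values, and the median of 0.031 turned to -0.043 with loess centring.

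Known PAR-bZip targets did not share a direction. Of 8 above the floor, 5 were lower and 3 higher, against 46.0% and 53.9% of all genes, with a median of -0.28. The 5 lower ones were clock genes already described, Per1, Per2, Per3, Nr1d1 and Nr1d2. The last pair are members chosen by their differences and set this median, and without them 3 were lower and 3 higher, with a median of -0.18. The metabolic targets known from mouse liver went the other way or were level. Alas1, the rate-limiting enzyme gene of heme synthesis, differed by 0.55, the cytochrome P450 reductase gene Por by 0.25 and the pyridoxal kinase gene Pdxk by 0.052. Nr1i3 and Cyp2b10 were below the floor, and Cyp2a5 was not analysed here.

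Kidney genes known to be driven by the clock were split as well, with 5 of 8 higher and 3 lower, against 53.9% and 46.0% of all genes. Their median was 0.18, which fell to 0.018 with the dChip values. Scnn1a, the alpha subunit gene of the epithelial sodium channel, differed by 0.47, the sodium and proton exchanger gene Slc9a3 by 0.40 and the ubiquitin protease gene Usp2 by 0.38. Tsc22d3, encoding the glucocorticoid-induced leucine zipper protein, differed by -0.35, the kinase gene Sgk1 by -0.28 and the water channel gene Aqp2 by -0.18. The kinase gene Wee1 differed by 0.10. Avpr2, the vasopressin receptor gene, differed by 0.26 in RMA values and by -0.065 in dChip values, so its direction is not settled, and its wild type level lay below the floor. None of the 8 reached 1.5-fold, which 4.11% of all genes above the floor did upwards and 1.61% downwards. The C/EBP genes encode bZip factors related in their DNA-binding part to DBP, TEF, HLF and NFIL3. They differed by -0.033 for Cebpa, 0.29 for Cebpb, 0.35 for Cebpd and -0.26 for Cebpg, and the sign of Cebpb turned with the dChip values. The wild type level of Cebpd lay below the floor.

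By levels on the 2 arrays, the genes nearest to Dbp were Nphs1, the nephrin gene of podocytes, Gimap6 and Slfn5, at distances of 0.096, 0.10 and 0.12 on the log2 scale. Those nearest to Nfil3 were the thiamine transporter gene Slc19a3, Vstm2a and Lilrb4a, at 0.032, 0.050 and 0.072. With 2 arrays such a likeness rests on 2 values a gene, and levels of different probe sets do not measure relative amounts of RNA.

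Markers of the cell types in the preparation differed between the pools beside these genes. Their counts stand against 46.0% lower and 53.9% higher among all genes above the floor. Counts and medians cover the markers above the floor. The sums cover every marker listed, those below the floor included, and the brightest weigh most in them. Smooth muscle markers, which define the arteriole wall, summed to 8976 in wild type and 9098 in cKO on the dChip intensity scale, with 4 of 6 lower and a median difference of -0.044, and Lmod1 of that list lay below the floor on both arrays. Endothelial markers summed to 30996 and 23004.5 and lay lower in 8 of 8 cases (median -0.52). Podocyte markers summed to 19836 and 16837 and lay lower in 5 of 5 cases (median -0.42). Renin cell markers summed to 5516 and 3857 and lay lower in 3 of 3 cases above the floor (median -0.43), Akr1b7 being below it. Higher in the cKO pool were proximal tubule markers in 6 of 6 cases (25801 and 31819, median 0.30), distal nephron markers in 6 of 8 (19449.5 and 23298, median 0.56) and macrophage markers in 6 of 6 (2375 and 5030, median 1.01), with Itgam below the floor. Adgre1 and Ctss of the macrophage list passed the floor on the cKO array alone, where they are high. Nothing is therefore read from the macrophage count or median. The differences of Dbp and Tef lie within the range of the endothelial markers, those of Hlf and the Rev-erb genes within that of the podocyte markers, and that of Nfil3 within those of the macrophage and distal nephron markers. These ranges overlap. Tef also lies within those of the podocyte and renin cell markers, and Hlf and Nr1d1 within that of the smooth muscle markers, so no member is assigned to a cell type. The part of cell makeup in the members' differences was not tested. In pooled tissue, fewer cells of a type and less RNA per cell cannot be told apart. Ren1, of the renin cell markers, had dChip intensities of 2654.5 in wild type and 1605.4 in cKO. The cKO animals alone had cre at 1 Ren1d allele, so for Ren1 the changed allele cannot be told apart from these either. Sex differed with genotype: Xist, transcribed from the inactive X chromosome, read 11.39 and 5.41, and the Y-linked genes were higher in the all-male cKO pool in 4 of 4 cases, so sex and genotype cannot be told apart.

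**Figure D4:**
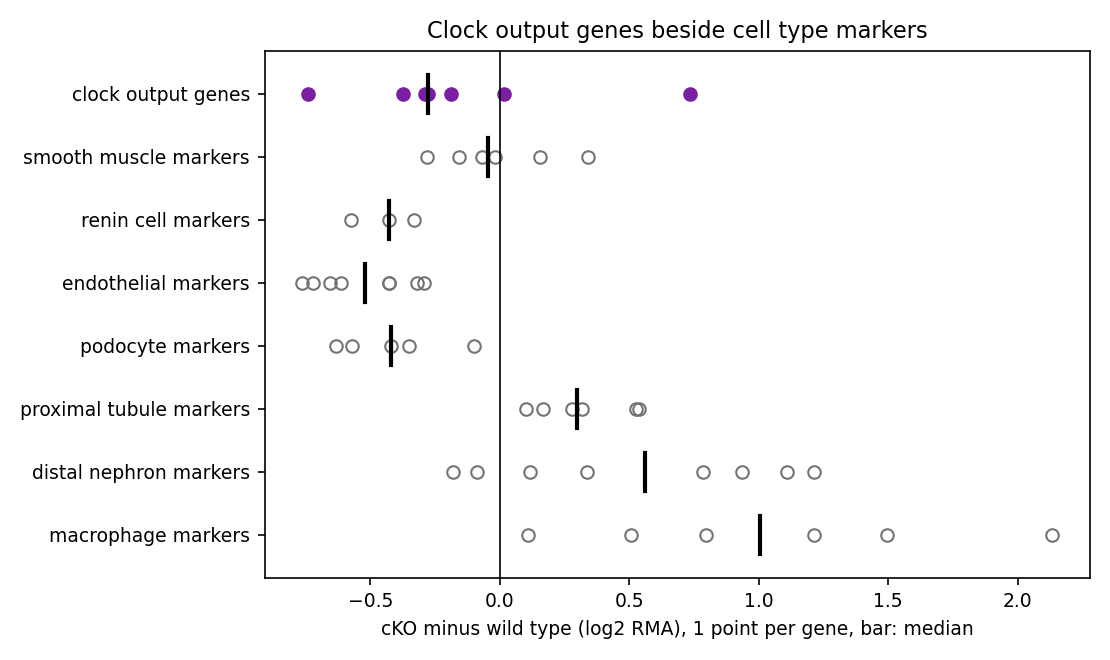
Differences (cKO minus wild type, log2 RMA) of the 7 clock output genes and of the cell type markers above the floor, 1 point a gene with the median as a bar. The endothelial and podocyte markers lie below zero, the macrophage and proximal tubule markers above it, and the clock output genes spread from -0.74 to 0.74.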

How the data were processed

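Gene expression was measured on 2 Affymetrix arrays, 1 for each RNA pool. The deposited log2 values cover 34760 probe sets and were made with RMA, named in the submitters' processing notes beside R 2.15.0 and limma 3.12.1. The authors also deposited linear intensity values computed with dChip, per the file headers, for 35512 probe sets, with a signed fold score (cKO over wild type, minus where wild type was higher) and its bounds. The sources used here give no genome build, dChip version or annotation version. RMA was the main processing. Names were updated through RefSeq accessions (18664 probe sets), current symbols (2420) or synonyms (1957), and 2134 kept theirs. For a gene with several probe sets the one with the highest mean was used. Differences were subtractions of log2 values, with no test. Genes counted as apart at 2-fold and 1.5-fold. The alternatives were dChip values, centring on the median or on a loess trend (span 0.3), the mean over probe sets, no floor and a floor at the 75th percentile. Counting and centring were tested on simulated data. The members and lists were chosen with earlier results of these data known, and some list members are not reported here. The genes named are the 7 members, the genes of the 11 clock lists (the 8 marker lists by counts), and the 3 genes nearest in levels to the most lowered and to the most raised member (predicted genes, small RNAs, and olfactory and vomeronasal receptors aside). Rbpj, Xist, Ren1, Lmod1, Akr1b7, Itgam, Adgre1 and Ctss were named after their values were seen. The software was Python 3.11.15 with NumPy 2.4.6, pandas 2.3.3, statsmodels 0.14.6 and matplotlib 3.10.9.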

Additional observations from a re-analysis of the deposited data

How the results depend on the processing

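The dChip values and both centrings kept the sign of the differences of Dbp, Tef, Hlf, Nfil3, Nr1d1 and Nr1d2, and that of Rora turned with either centring. The mean over probe sets could not change a member's difference, since each member had 1 probe set. A member's difference counted as moved when it shifted by more than the half-width of the authors' bounds on the log2 scale, and a count when it changed by over 1.5 times. On that basis 59 alternative values stayed and 17 moved. The 59 include each member's value under the mean over probe sets, which was fixed. They also include each member's value under median centring. Its shift of 0.023 is below the smallest half-width, 0.029 for Rora, so none could move, although the sign of Rora turned. The count therefore does not measure how stable the members are. With the dChip values the differences were -0.66 for Dbp, -0.23 for Hlf, 0.52 for Nfil3 and -0.20 for Nr1d1. With loess centring, which shifts bright genes down by up to 0.14, they were -0.82 for Dbp, -0.43 for Tef, -0.39 for Nr1d1, -0.38 for Nr1d2 and -0.016 for Rora. The number of members at least 1.5-fold higher was 0 with the dChip values and 0 with the stricter floor, which leaves Nfil3 out, against 1. Over all genes the stricter floor, which keeps fewer genes, left 55 at least 2-fold higher, 9 lower, 286 at least 1.5-fold higher and 102 lower, against 99, 23, 476 and 186. With no floor 45 were at least 2-fold lower and 332 at least 1.5-fold lower. Of the clock list medians 40 alternative values stayed and 12 moved, including the 2 without members, chosen after seeing the data, with the same sign in 9 of 10 lists under dChip, in 9 of 10 under loess centring and in 10 of 10 under median centring. No paired analysis was possible because each group holds 1 array. Signal over background limits Nfil3, whose wild type level lies near the floor, and Bhlhe41, whose cKO level lies near the floor. The same limit holds for Arntl, Npas2, Fbxl21, Avpr2 and Cebpd and the macrophage markers Adgre1 and Ctss, whose wild type levels lie below the floor.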
